A study of Mus musculus with 58 samples.

Results

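Pericytes wrap the capillaries of the brain and smooth muscle cells wrap its arterioles, and 8 genes that mark these mural cells were followed in mouse prefrontal cortex. Pdgfrb, Abcc9, Rgs5, Vtn, Cspg4, Acta2, Tagln and Myl9 were matched by symbol to the GRCm38 annotation. All 8 were found among the 18088 genes of the deposited table, and all 8 passed the filter on low values. RNA of 58 mice was sequenced, and the labels name strain C57BL/6J for every animal. The mice were labelled heterozygous (HT) or wild type (WT) for Tanc2, which encodes a synaptic scaffold protein. Nursing pups took lithium, fluoxetine (a serotonin reuptake inhibitor) or vehicle from treated mothers' milk between postnatal days 3 and 24, and cortex was collected at day 25. Genotype, drug and sex together gave 12 groups of 5 mice, but of 4 in HT lithium males and WT vehicle males. Litters and dams are not named in the labels. Since a treated mother dosed all of her pups, mice may share more than the tests, which take each mouse as its own unit, allow for.

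Pericytes are drawn to growing capillaries by endothelial PDGF-BB, which binds the receptor tyrosine kinase PDGFRB on their surface, and mice that lack this signal have few pericytes and leaky brain vessels. Arteriolar smooth muscle carries a contractile apparatus of smooth muscle actin, myosin and their regulators, whose genes are switched on by serum response factor with its partner myocardin at DNA elements named CArG boxes. Pericytes of the mid-capillary hold little of that apparatus and are instead known for ATP-sensitive potassium channels and the signalling regulator RGS5.

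Values are normalized reads: the reads of a gene over its library's size factor. The libraries held 23271044 to 37801615 recovered reads (median 27912119). Differences are on the log2(value + 1) scale, given as estimate ± SE, from 1 limma fit across 17925 genes and all 58 libraries. The threshold for passing was an adjusted p of 0.05 (Benjamini-Hochberg, over all genes tested). Tanc2 itself was not lower in mice labelled HT, with 8038 ± 572 normalized reads in 29 HT-labelled mice and 7512 ± 382 in 29 WT-labelled mice (SD), so HT and WT below mean labels; reads over the whole gene may not show a partial deletion. Slc17a7, a marker of cortical excitatory neurons, stood at 36295 to 56488 normalized reads in every library. Markers of neighbouring tissue varied widely between libraries: the summed level of 9 olfactory bulb markers ran from 2609 to 28893 normalized reads, and that of 8 striatal markers from 4455 to 19162. Reads of the gene model Gm10221 were present in all 19 lithium libraries, all 5 HT fluoxetine females, 3 of 5 WT fluoxetine females and no vehicle library, so this trait of the libraries moved with the drugs.

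In the GENCODE annotation of GRCm38 the pericyte genes lie at separate places: Pdgfrb (ENSMUSG00000024620) at chr18:61045150-61085061 on the plus strand, Abcc9 (ENSMUSG00000030249) at chr6:142587862-142702315 on the minus strand and Rgs5 (ENSMUSG00000026678) at chr1:169655501-169695813 on the plus strand. Of the matrix and surface genes, Vtn (ENSMUSG00000017344) lies at chr11:78499091-78502324 on the plus strand, and Cspg4 (ENSMUSG00000032911) at chr9:56865033-56899870 on the plus strand. The contractile genes are Acta2 (ENSMUSG00000035783) at chr19:34241090-34255590 on the minus strand, Tagln (ENSMUSG00000032085) at chr9:45929619-45936058 on the minus strand and Myl9 (ENSMUSG00000067818) at chr2:156775420-156781658 on the plus strand. All 8 genes were detected in every library, and the lowest single value was 135 normalized reads (Tagln). Per kilobase of exon, the level was highest for Rgs5, an inhibitor of G protein signalling, with a mean of 856 normalized reads per kilobase, and for Vtn, the adhesion protein vitronectin, with 752. Next came the myosin light chain Myl9 with 263, the smooth muscle actin Acta2 with 166, Pdgfrb with 136 and the actin-binding calponin relative Tagln with 100.1 normalized reads per kilobase. The lowest were Cspg4, the NG2 proteoglycan, with 52.7 and Abcc9, the SUR2 subunit of ATP-sensitive potassium channels, with 35.5 normalized reads per kilobase. Other mural genes were present as well: the smooth muscle myosin Myh11 averaged 312 and the pericyte channel Kcnj8 averaged 110 normalized reads. Cnn1, calponin of smooth muscle, was near the filter at a mean of 12.1 normalized reads, with 3.67 in the lowest library and 23.4 in the highest. Markers of endothelium, fibroblasts, oligodendrocyte precursors, microglia and red blood cells were all detected too. In bulk tissue, fewer cells of a type and less RNA per cell cannot be told apart.

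**Figure D1:**
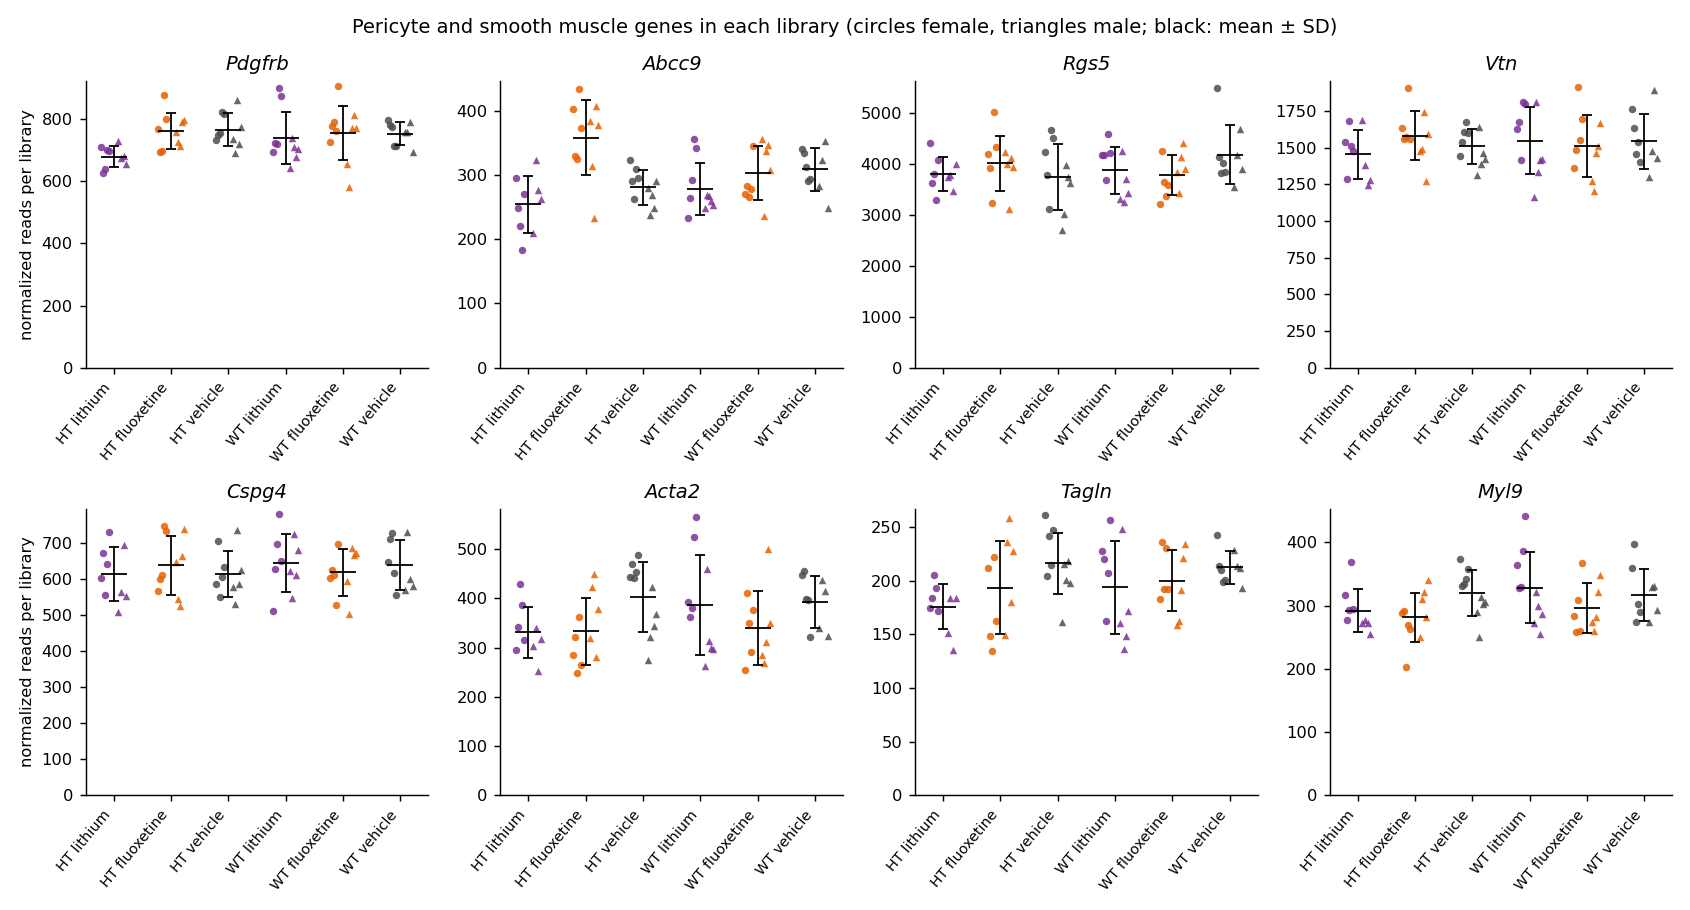
Normalized reads of the 8 genes in each of 58 libraries (vertical axes, from 0) by genotype label and drug (horizontal axes); circles are females, triangles are males, and black marks give the mean ± SD of each arm. The arms overlap for all 8 genes; Abcc9 has its highest mean in HT fluoxetine (358) and Pdgfrb its lowest in HT lithium (680).

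The genotype label alone moved none of the 8 genes past the test. Under vehicle, 0 of the 8 genes passed, as did 0% of all genes tested; 1 member had an unadjusted p under 0.05, against 814 of 17925 genes. Under fluoxetine and under lithium the counts were again 0 of 8 and 0% of all genes, with 1 and 2 members and 1114 and 2006 genes at an unadjusted p under 0.05. edgeR also called no gene in these 3 comparisons, and DESeq2 called 3, 2 and 14 genes, none of them a member.

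Rgs5 had the lowest unadjusted p under vehicle. It ranged from 2708 to 4671 normalized reads in 10 HT vehicle mice (median 3767) and from 3552 to 5486 in 9 WT vehicle mice (median 4014), a log2 difference of -0.17 ± 0.08 (limma adjusted p = 0.947). The 2 ranges overlapped over most of their width, and 8 of 10 HT mice lay below the WT mean of their sex. Under lithium, Pdgfrb had a log2 difference between HT and WT of -0.11 ± 0.05 (limma adjusted p = 0.432) and Myl9 one of -0.17 ± 0.07 (limma adjusted p = 0.376). Every one of 9 HT lithium mice had less Myl9 than the WT lithium mean of its sex, yet the ranges overlapped, with 255 to 369 normalized reads in HT lithium and 254 to 441 in WT lithium. Under fluoxetine, Abcc9 had a log2 difference of 0.23 ± 0.09 (limma adjusted p = 0.705). Averaged over the 3 arms, a contrast added later, all 8 estimates lay below 0, from -0.07 to -0.01, and again 0 of 8 and 0% of all genes passed.

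Abcc9 was higher in HT mice given fluoxetine. SUR2, the protein of Abcc9, forms potassium channels together with Kir6.1, the protein of Kcnj8, and their opening relaxes pericytes and smooth muscle. Abcc9 ran from 233 to 433 normalized reads in 10 HT fluoxetine mice (median 375), against 238 to 323 in 10 HT vehicle mice (median 284). In females the groups did not overlap: the fluoxetine mice had 325, 329, 373, 402 and 433 normalized reads and the vehicle mice 263, 290, 295, 309 and 323. In males 1 fluoxetine mouse, at 233, lay below all 5 vehicle males, and the other 4, from 314 to 406, lay above all of them. The log2 difference was 0.34 ± 0.09, a level 26.3% higher (limma adjusted p = 0.0217), and 9 of 10 fluoxetine mice lay above the vehicle mean of their sex.

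Abcc9 was the single member to pass in this comparison, 1 of 8 where 3.54% of all genes passed and 1.46% were higher. Kcnj8, which lies 16247 bases from Abcc9 on chromosome 6, had a log2 difference of 0.08 ± 0.11 in the same mice (limma adjusted p = 0.743). Both estimates within a sex pointed the same way, with log2 differences of 0.33 ± 0.13 in females and 0.35 ± 0.13 in males, and neither passed alone. Without HT fluoxetine female 4, male 1 or male 4 the adjusted p was 0.0534, 0.0510 or 0.0517, and with a term for Gm10221 reads it was 0.0731 at a log2 difference of 0.37. Fits with a term for these reads, here and below, also took sex as an additive term.

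An endothelial gene rose beside Abcc9. Of 15 endothelial markers 1 passed (3.54% of all genes did), Kdr, the VEGF receptor, at 0.34 ± 0.09 (limma adjusted p = 0.0215), and 11 of 15 estimates lay above 0, with a median of 0.07 against 0.00 over all genes. The summed level of these markers was 13041 to 18983 normalized reads in HT fluoxetine and 12162 to 15380 in HT vehicle. Some lists of other tissue and cell types gave estimates of 1 sign, with none passing in those lists. All 9 olfactory bulb estimates lay below 0 (median -0.63), all 6 red blood cell estimates lay below 0 (median -0.37) and all 8 microglial estimates lay above 0 (median 0.17). The summed level of 8 striatal markers ran from 4991 to 12449 normalized reads in HT fluoxetine (median 5568). In HT vehicle it ran from 4455 to 5602 (median 4958). The part of any of these in the Abcc9 result was not tested. In the list of 24 other pericyte genes, 1 rose and none fell: Foxf2, a transcription factor of brain pericytes, at 0.33 ± 0.10 (limma adjusted p = 0.0405). Of 23 signals to mural cells 3 rose, where 1.46% of all genes did, and none fell: the PDGF ligand Pdgfa (0.16, limma adjusted p = 0.0288), the Tie2 ligand Angpt2 (0.48, limma adjusted p = 0.0307) and the vasoconstrictor Edn1 (0.42, limma adjusted p = 0.0453).

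In WT mice Abcc9 did not pass under fluoxetine. The gene ran from 236 to 356 normalized reads in 10 WT fluoxetine mice (median 295) and from 248 to 352 in 9 WT vehicle mice (median 312), with a log2 difference of -0.03 ± 0.09 (limma adjusted p = 0.961). None of the 8 genes passed in WT, where 1.38% of all genes did; none had an unadjusted p under 0.05, and edgeR and DESeq2 called 0 of them. The difference between the fluoxetine effects in HT and WT was 0.37 ± 0.13 for Abcc9 and 0.25 ± 0.11 for Rgs5, each with a limma adjusted p of 0.792. No gene passed this interaction test (0% of 17925; 1128 genes at an unadjusted p under 0.05; 0 by edgeR and 2 by DESeq2), so a difference between genotypes was not established.

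Of the contractile genes, Acta2 and Myl9 fell in HT females given fluoxetine. Over both sexes of HT mice, Acta2 had a log2 difference of -0.28 ± 0.11, Myl9 one of -0.19 ± 0.07 and Tagln one of -0.18 ± 0.10, none past the test (limma adjusted p = 0.154, 0.146 and 0.341). The effects within each sex were examined after these values had been seen. HT fluoxetine females had 249, 264, 286, 322 and 362 normalized reads of Acta2, against 443, 443, 453, 470 and 488 in HT vehicle females. The 2 groups were fully apart, and Acta2 fell by 0.64 ± 0.15 on the log2 scale; its level fell by 35.9% (limma adjusted p = 0.0125).

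Myl9, whose phosphorylation drives smooth muscle contraction, moved in the same females. It stood at 204, 263, 269, 288 and 292 normalized reads in HT fluoxetine females and at 332, 334, 343, 359 and 374 in HT vehicle females, again without overlap. The log2 difference was -0.41 ± 0.10 (limma adjusted p = 0.0172). In a limma fit of females alone its adjusted p was 0.0575, and without HT fluoxetine female 3 or HT vehicle female 5 it was 0.0849 or 0.0513. WT vehicle females ran from 275 to 398 normalized reads of Myl9, which overlaps both HT groups. Acta2 passed in the fit of females alone (limma adjusted p = 0.0126) and without each of the 10 libraries in turn (limma adjusted p from 0.00932 to 0.0448). Tagln, with 135, 149, 163, 212 and 222 normalized reads in HT fluoxetine females and 204, 215, 242, 248 and 261 in HT vehicle females, overlapped between the groups and did not pass (-0.43 ± 0.14, limma adjusted p = 0.0824; 0.0436 without HT fluoxetine female 4).

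Among the 8 genes, 2 passed in HT females, both lower, where 2.49% of all genes passed and 1.42% were lower. Groups without overlap were found for 3 of the 8 in this comparison, against 5.84% of all genes: Acta2 and Myl9 lower and Abcc9 higher. Over all drug comparisons within a sex, 6 of 96 pairs of member and sex were without overlap. All 6 lay in HT females, whose groups are shared between comparisons, and none in males or in WT mice. Of 21 other contractile genes tested 1 fell and none rose: Myh11, the smooth muscle myosin heavy chain, at -0.50 ± 0.13 (limma adjusted p = 0.0256). Their median was -0.03, against 0.00 over all genes. The transcription factor genes Srf and Myocd had log2 differences of -0.09 ± 0.09 and -0.36 ± 0.28 (limma adjusted p = 0.697 and 0.571). Abcc9 did not pass in these females, with a log2 difference of 0.33 ± 0.13 (limma adjusted p = 0.163). Nor did Pdgfrb (-0.02 ± 0.07), Rgs5 (0.03 ± 0.11), Vtn (0.06 ± 0.10) and Cspg4 (0.08 ± 0.11), with limma adjusted p from 0.782 to 0.933. Endothelial markers had a median of 0.02 in these females, fibroblast markers 0.04, red blood cell markers -0.07 and olfactory bulb markers -0.50 (9 of 9 below 0), with none passing, and their part was not tested.

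In HT males the contractile genes did not pass. Acta2 stood at 281, 321, 379, 423 and 450 normalized reads in HT fluoxetine males and at 274, 322, 345, 369 and 423 in HT vehicle males, and the groups overlapped almost wholly. The log2 differences in males were 0.09 ± 0.15 for Acta2, 0.06 ± 0.14 for Tagln and 0.04 ± 0.10 for Myl9, and 0 of 8 genes passed, with 0.206% of all genes; 1 member, Abcc9, had an unadjusted p under 0.05. The female effect minus the male effect was -0.73 ± 0.21 for Acta2 (limma adjusted p = 0.839), -0.45 ± 0.15 for Myl9 and -0.49 ± 0.20 for Tagln (both with a limma adjusted p of 1). No member passed the test of that difference, where 0.0112% of all genes passed, and 3 members had an unadjusted p under 0.05, so unequal effects in the sexes were not established over all genes. All 5 HT fluoxetine females held Gm10221 reads and no HT vehicle female or HT fluoxetine male did, so in females this trait and the drug cannot be told apart.

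**Figure D2:**
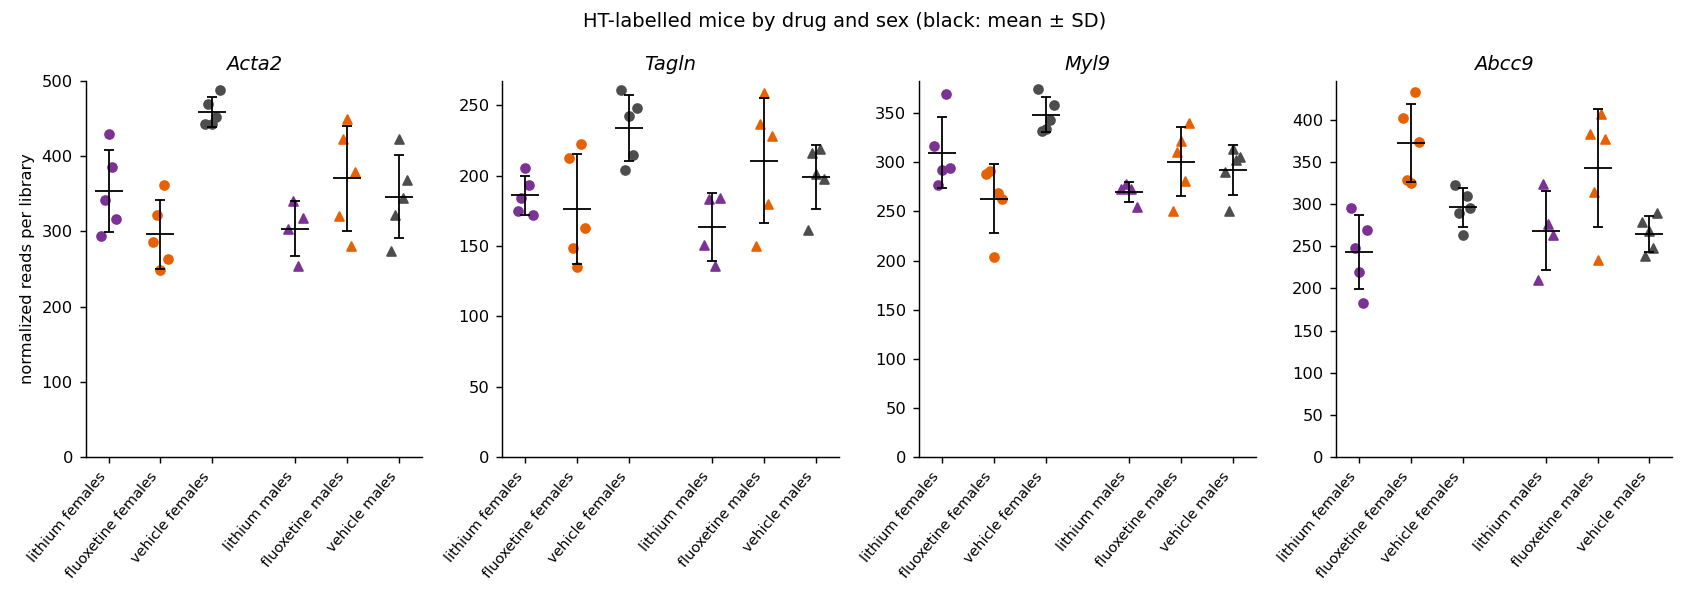
Normalized reads of Acta2, Tagln, Myl9 and Abcc9 (vertical axes, from 0) in HT-labelled mice by drug and sex; each point is 1 library and black marks give mean ± SD. In females Acta2 averaged 296 under fluoxetine and 459 under vehicle with no overlap, whereas in males it averaged 371 under fluoxetine and 346 under vehicle.

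In WT mice the contractile genes did not pass under fluoxetine in either sex, where 0.374% of all genes passed in females and 0.1% in males. Acta2 had log2 differences of -0.27 ± 0.15 in WT females and -0.17 ± 0.16 in WT males (limma adjusted p = 0.612 and 1). Averaged over both genotypes and sexes, a contrast also added after the first results, Acta2 fell by 0.25 ± 0.08 on the log2 scale under fluoxetine (limma adjusted p = 0.0409), the single member called where 6.15% of all genes were. That call was lost with edgeR (adjusted p = 0.0560), with a term for Gm10221 reads (-0.11, limma adjusted p = 0.673), in males alone (-0.04, limma adjusted p = 0.977) and when any one of 19 of the 39 libraries was left out.

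The start regions of Acta2 and Myl9 are shown because their levels fell together in HT fluoxetine females, and that of Abcc9 because it rose in HT fluoxetine mice over both sexes. Each is the run of 250 bases before the RefSeq start (GRCm38.p6), written 5′ to 3′ on the strand of the gene, with CArG boxes in capitals. The window of Acta2 lies at chr19:34255374-34255623 on the minus strand, that of Myl9 at chr2:156775214-156775463 on the plus strand and that of Abcc9 at chr6:142702275-142702524 on the minus strand. These RefSeq starts differ from the starts of the GENCODE genes given above. Part of each window thus lies inside the GENCODE gene, and for Acta2 most of it does.
Acta2: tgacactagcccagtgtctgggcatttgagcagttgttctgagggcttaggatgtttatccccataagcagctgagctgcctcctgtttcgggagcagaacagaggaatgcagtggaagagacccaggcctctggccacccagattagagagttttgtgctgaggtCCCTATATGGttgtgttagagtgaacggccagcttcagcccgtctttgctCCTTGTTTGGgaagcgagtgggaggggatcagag
Myl9: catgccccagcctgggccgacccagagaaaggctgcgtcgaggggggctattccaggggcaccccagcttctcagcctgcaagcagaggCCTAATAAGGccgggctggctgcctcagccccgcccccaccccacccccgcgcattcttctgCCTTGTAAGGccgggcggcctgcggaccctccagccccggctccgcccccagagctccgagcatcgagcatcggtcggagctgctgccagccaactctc
Abcc9: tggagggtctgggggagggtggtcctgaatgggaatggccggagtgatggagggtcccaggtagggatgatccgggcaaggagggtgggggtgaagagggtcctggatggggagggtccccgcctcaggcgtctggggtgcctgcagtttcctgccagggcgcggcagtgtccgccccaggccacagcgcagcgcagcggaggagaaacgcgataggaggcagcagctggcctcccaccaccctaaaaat
Both strands were searched for the CArG box by name, first in its strict form. The relaxed form held exactly 1 G or C among the bases between its CC and GG ends, so it leaves out strict boxes. Myl9 held a strict box 161 to 152 bases before the start and a relaxed one 99 to 90 bases before it. Acta2 held relaxed boxes 84 to 75 and 34 to 25 bases before the start, and the Abcc9 window held neither form. Of 32851 RefSeq windows of the same length, 1.47% held the strict form and 7.24% the relaxed one. The windows of Rgs5, Vtn and Cspg4 also held neither form, and Tagln and Pdgfrb were not searched. A match describes the letters only.

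Of the 8 genes 2 fell in HT mice given lithium, Pdgfrb and Tagln. Of all genes 16.3% passed and 8.03% were lower, and in a list of 8 a count of 2 is not far from that background. Pdgfrb, the PDGF-BB receptor of pericytes, ran from 626 to 730 normalized reads in 9 HT lithium mice (median 683) and from 692 to 864 in 10 HT vehicle mice (median 753). In females the groups did not overlap, with 626, 640, 698, 701 and 711 normalized reads under lithium and 734, 750, 755, 818 and 824 under vehicle. All 9 lithium mice lay below the vehicle mean of their sex. Pdgfrb differed by -0.17 ± 0.05 (limma adjusted p = 0.0232), that is, its level fell by 11.1%.

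Tagln ran from 136 to 205 normalized reads in HT lithium mice (median 184) and from 162 to 261 in HT vehicle mice (median 215). All 9 lithium mice again lay below the vehicle mean of their sex, although the ranges overlapped. It fell by 0.31 ± 0.10 on the log2 scale (limma adjusted p = 0.0311), that is, its level fell by 19.1%. Acta2, from 254 to 430 normalized reads in HT lithium (median 318) and from 274 to 488 in HT vehicle (median 433), also lay below the vehicle mean of its sex in 9 of 9 mice but missed the threshold (-0.29 ± 0.11, limma adjusted p = 0.0689). In females Acta2 stood at 294, 317, 341, 386 and 430 normalized reads under lithium, below all 5 vehicle females. Groups of females without overlap were thus found for 2 of 8 genes, Pdgfrb and Acta2, against 5.24% of all genes. The same 5 HT vehicle females were the reference for fluoxetine, so the Acta2 values for the 2 drugs are not independent.

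The remaining members did not pass in HT lithium mice. Myl9 had a log2 difference of -0.14 ± 0.07, Abcc9 of -0.15 ± 0.09, Vtn of -0.06 ± 0.07, Cspg4 of -0.01 ± 0.08 and Rgs5 of 0.04 ± 0.08 (limma adjusted p from 0.194 to 0.947). The 95% intervals were -0.12 to 0.20 for Rgs5 and -0.17 to 0.15 for Cspg4. Without HT vehicle male 3 the adjusted p of Pdgfrb was 0.0578. That of Tagln lay between 0.0525 and 0.0905 when HT lithium male 1 or 3, HT vehicle female 1 or 5, or HT vehicle male 2 or 4 was left out. With a term for Gm10221 reads neither passed (Pdgfrb -0.16, adjusted p = 0.347; Tagln -0.12, adjusted p = 0.733), and no gene of the 17925 passed. Every lithium library and no vehicle library held these reads, so this trait and lithium cannot be told apart here, and nothing is concluded from that fit. Within a sex none of the 8 passed (6.85% of all genes in females and 2.99% in males), with log2 differences for Pdgfrb of -0.20 ± 0.07 in females and -0.14 ± 0.08 in males, and 4 and 0 members at an unadjusted p under 0.05.

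Of 24 other pericyte genes 1 fell under lithium in HT mice, where 8.03% of all genes did, and none rose: Notch3, the Notch receptor of mural cells, at -0.22 ± 0.06 (limma adjusted p = 0.0047). It ran from 432 to 534 normalized reads in HT lithium and from 505 to 631 in HT vehicle. Its ligand gene Jag1 fell by 0.33 (limma adjusted p = 0.0185). Of 21 other contractile genes, Flna, which cross-links actin, fell (-0.16, limma adjusted p = 0.0147) and the tropomyosin gene Tpm1 rose (0.12, limma adjusted p = 0.0465), whereas Myh11 did not pass (-0.22 ± 0.10, limma adjusted p = 0.112). The medians were -0.08 for the pericyte genes and -0.04 for the contractile genes, against 0.00 over all genes.

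In the list of 23 PDGF, TGF-beta and Notch signals to mural cells, 3 genes rose and 2 fell under lithium in HT mice. This is close to the share of all genes that passed (16.3%), so nothing is read from the count. Pdgfa, whose protein mainly serves PDGFRA, rose by 0.22 (limma adjusted p = 0.000583), Edn1 by 0.51 (limma adjusted p = 0.00388) and Angpt1, the partner of Angpt2 at Tie2, by 0.32 (limma adjusted p = 0.0232). The endothelin receptor gene Ednra fell by 0.26 (limma adjusted p = 0.042), as did Jag1. Pdgfb, the ligand of the receptor encoded by Pdgfrb, had a log2 difference of 0.00 ± 0.07 (limma adjusted p = 0.976).

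Of 21 gene identifiers on the list of vessel tone regulators 2 rose and 4 fell, where 16.3% of all genes passed and 8.03% were lower. Among them were Rhoa (0.12, limma adjusted p = 0.0022), which activates the kinases that sustain contraction, the adrenergic receptor Adra1a (-0.35, limma adjusted p = 0.0045) and the endothelial nitric oxide synthase Nos3 (-0.26, limma adjusted p = 0.0176). Kcnj8 had a log2 difference of -0.18 ± 0.11 (limma adjusted p = 0.279). Of 13 vitronectin receptors and NG2 partners tested, the integrin gene Itgb1 rose (0.12, limma adjusted p = 0.0342) and none fell.

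Of 15 endothelial markers 1 fell in HT lithium mice, the angiopoietin receptor Tek (-0.30, limma adjusted p = 0.0141), a smaller share than the 8.03% of all genes that were lower. Of the 15 estimates 14 lay below 0, with a median of -0.15 against 0.00 over all genes. Flt1 and Cldn5, a VEGF receptor and a tight junction protein, had log2 differences of -0.25 ± 0.09 and -0.18 ± 0.07 (limma adjusted p = 0.0572 and 0.101). Their summed level was 11746 to 13838 normalized reads in HT lithium and 12162 to 15380 in HT vehicle. Estimates of striatal markers had the other sign: all 8 lay above 0, with a median of 0.40, and 2 rose. The summed level of 6 red blood cell markers ran from 8058 to 14060 normalized reads in HT lithium (median 10608). In HT vehicle it ran from 8123 to 21740 (median 14180). The part of endothelial, striatal or red blood cell content in the Pdgfrb and Tagln results was not tested.

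In WT mice none of the 8 genes passed under lithium, where 7.47% of all genes did; none had an unadjusted p under 0.05, and edgeR and DESeq2 called 0 of them. Pdgfrb ran from 642 to 902 normalized reads in WT lithium and from 696 to 797 in WT vehicle, a log2 difference of -0.03 ± 0.05 (limma adjusted p = 0.785). Tagln had a log2 difference of -0.16 ± 0.10, with 136 to 257 normalized reads in WT lithium and 193 to 243 in WT vehicle (limma adjusted p = 0.385). The difference between the lithium effects in HT and WT was -0.14 ± 0.08 for Pdgfrb and -0.15 ± 0.14 for Tagln (limma adjusted p = 0.810 and 0.937), so the effects were not shown to differ. No gene passed that test (0% of 17925; 1196 at an unadjusted p under 0.05; 0 by edgeR and 4 by DESeq2). Averaged over both genotypes, a contrast added later, Tagln had a log2 difference of -0.23 ± 0.07 (limma adjusted p = 0.0132) and Pdgfrb one of -0.10 ± 0.04 (limma adjusted p = 0.0416). That is 2 of 8 genes where 24.3% of all genes passed, so the count is no more than the background. With a term for Gm10221 reads the log2 difference of Tagln was -0.05 (limma adjusted p = 0.893) and that of Pdgfrb -0.09 (limma adjusted p = 0.564), so neither passed. In both genotypes all lithium libraries and no vehicle library held these reads, so that fit cannot separate the trait from lithium. Tagln passed without each of the 38 libraries in turn, whereas Pdgfrb did not pass when any one of 20 of them was left out.

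**Figure D3:**
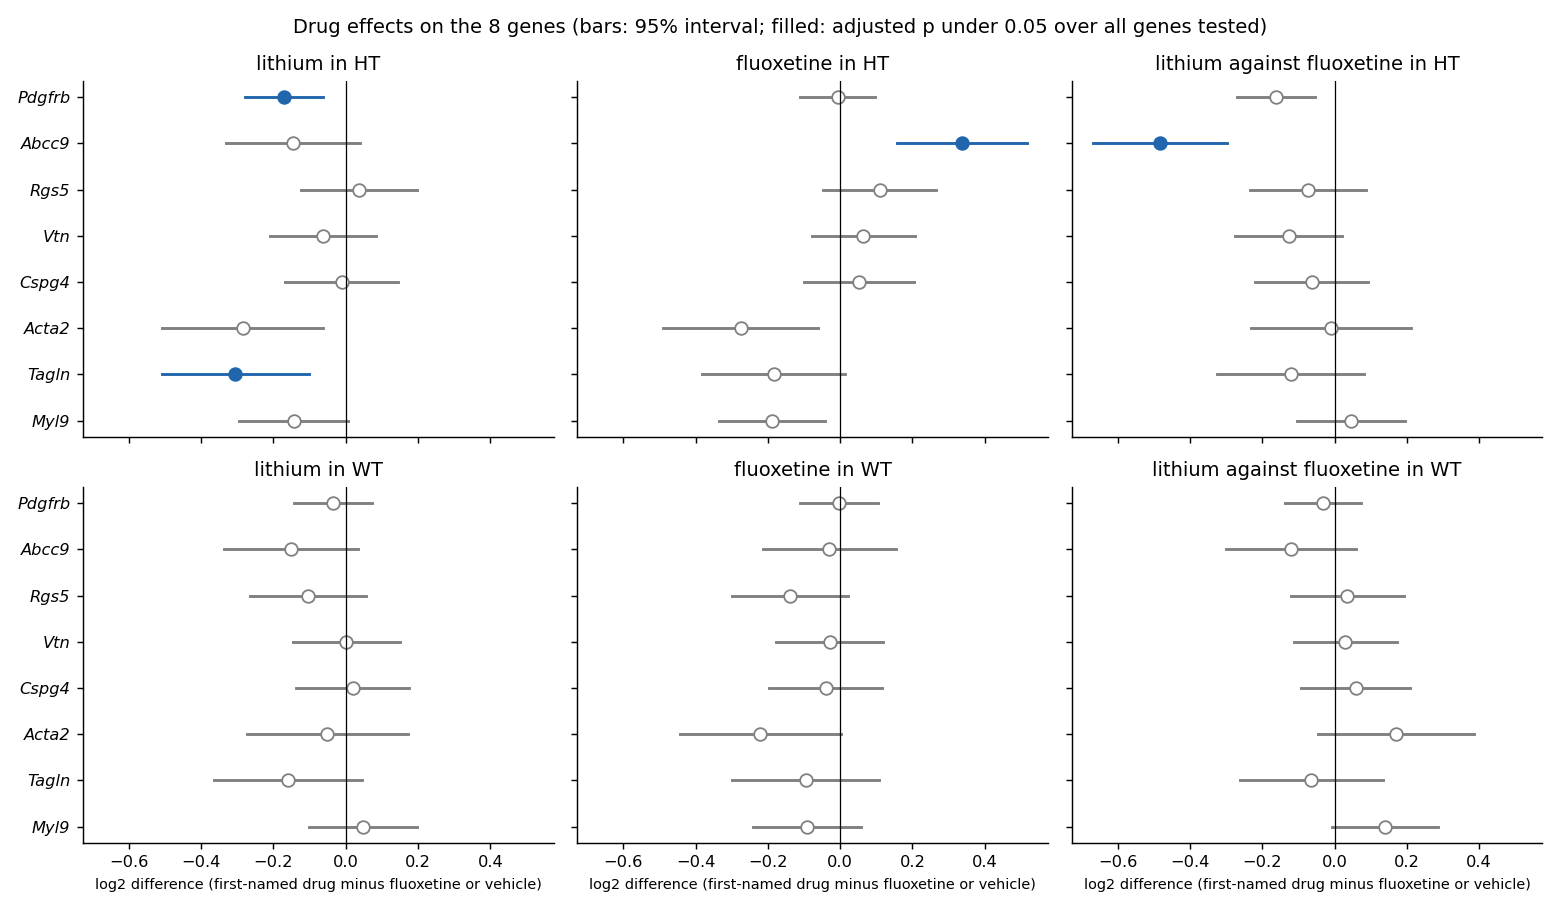
Log2 difference (horizontal axes) of each of the 8 genes (vertical axes) for lithium, for fluoxetine and for lithium against fluoxetine, with HT mice above and WT mice below; bars are 95% intervals, and filled points passed over all genes tested. Filled points stand in HT mice alone, at -0.17 and -0.31 (Pdgfrb and Tagln, lithium), 0.34 (Abcc9, fluoxetine) and -0.48 (Abcc9, lithium against fluoxetine), and the interaction tests with genotype did not pass.

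Lithium and fluoxetine were also set against each other, and Abcc9 differed most of the 8 genes in HT mice. It ran from 183 to 324 normalized reads in 9 HT lithium mice (median 263) and from 233 to 433 in 10 HT fluoxetine mice (median 375). In females the groups did not overlap, with 183, 220, 248, 269 and 295 normalized reads under lithium, all below the lowest fluoxetine female at 325. In males lithium mice had 210, 263, 276 and 324 normalized reads and fluoxetine mice 233, 314, 377, 383 and 406, which overlapped. The log2 difference was -0.48 ± 0.09 (limma adjusted p = 0.000914), so that the level fell by 28.5% relative to fluoxetine, and 9 of 9 lithium mice lay below the fluoxetine mean of their sex.

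Again Abcc9 was 1 of 8, where 6.25% of all genes passed and 3.06% were lower, and among females without overlap it was 1 of 8 against 2.49% of all genes. Abcc9 passed without each of the 19 libraries in turn, with adjusted p from 6.51e-05 to 0.00428, and with a term for Gm10221 reads (-0.46, adjusted p = 0.0165). In HT females, where both drug groups held Gm10221 reads in every library, the log2 difference was -0.62 (limma fit of females alone, adjusted p = 0.0102). In males it was -0.34 and did not pass (limma fit of males alone, adjusted p = 0.225). Pdgfrb had a log2 difference of -0.16 ± 0.05 (limma adjusted p = 0.0568), with 626 to 730 normalized reads under lithium and 696 to 880 under fluoxetine, and 9 of 9 lithium mice lay below the fluoxetine mean of their sex. This comparison shares its libraries with those against vehicle, and its values are not independent of them.

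Of 15 endothelial markers 4 fell, where 3.06% of all genes did, and none rose: Kdr (-0.44, limma adjusted p = 0.00268), Cldn5 (-0.31, limma adjusted p = 0.00889), Flt1 (-0.37, limma adjusted p = 0.010) and Pecam1 (-0.28, limma adjusted p = 0.0285). All 15 estimates lay below 0, with a median of -0.20. Of the 24 other pericyte genes 1 fell, Foxf2 (-0.46, limma adjusted p = 0.00338), and Kcnj8 had a log2 difference of -0.26 ± 0.11 (limma adjusted p = 0.141). Of the contractile genes tested 1 of 21 fell, Csrp1, an actin-associated LIM protein (-0.20, limma adjusted p = 0.047), while Acta2 and Myl9 had log2 differences of -0.01 ± 0.11 and 0.05 ± 0.07 (limma adjusted p = 0.970 and 0.774). All 9 olfactory bulb estimates lay above 0 here, with a median of 0.94 and none passing. Whether endothelial or olfactory bulb content had a part in the Abcc9 difference was not tested.

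WT mice gave no member past the test in this comparison, where 9.55% of all genes passed; none had an unadjusted p under 0.05, and edgeR and DESeq2 called 0 of the 8. Abcc9 ran from 232 to 355 normalized reads in WT lithium (median 265) and from 236 to 356 in WT fluoxetine (median 295), a log2 difference of -0.12 ± 0.09 (limma adjusted p = 0.457). Of 23 signals to mural cells 3 were higher under lithium, a share close to that of all genes that passed: Pdgfb by 0.39 ± 0.07 (limma adjusted p = 4.38e-05), Pdgfa by 0.16 (limma adjusted p = 0.0119) and Tgfb1 by 0.26 (limma adjusted p = 0.0375). Of 21 other contractile genes 2 rose, Srf, the transcription factor that binds CArG boxes (0.26, limma adjusted p = 0.0066), and Ppp1r14a, an inhibitor of myosin phosphatase (0.74, limma adjusted p = 0.0224). Averaged over both genotypes, in a contrast added later, Abcc9 again passed (-0.30 ± 0.06, limma adjusted p = 0.000526), 1 of 8 members where 18.2% of all genes passed, and it did so without each of the 39 libraries in turn; with a term for Gm10221 reads it was -0.27 (limma adjusted p = 0.0620).

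Sex itself had a small and uniform sign in these genes. All 8 estimates lay above 0 for females minus males, from 0.05 to 0.14 with a median of 0.09 against 0.00 over all genes, but 0 of 8 passed (0.301% of all genes did; 3 members had an unadjusted p under 0.05; 0 members by edgeR and by DESeq2). Vtn, which binds integrins and is secreted by pericytes, came closest, with 1285 to 1917 normalized reads in 30 females (median 1568) and 1163 to 1894 in 28 males (median 1428). Its log2 difference was 0.13 ± 0.04 (limma adjusted p = 0.196), and the ranges overlapped almost wholly. The level of Acta2 was 383 ± 80 normalized reads in females and 345 ± 67 in males (SD), a log2 difference of 0.14 ± 0.06 (limma adjusted p = 0.424).

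Across the 6 arms of genotype and drug, HT lithium had the lowest mean of 6 of the 8 genes. For Cspg4 this was a near tie, at 614.67 ± 75.2 normalized reads in HT lithium and 614.76 ± 64.9 in HT vehicle (SD). Arm means of Abcc9 ran, from low to high, from 254 in HT lithium through 278 in WT lithium, 280 in HT vehicle, 302 in WT fluoxetine and 308 in WT vehicle to 358 in HT fluoxetine. Those of Pdgfrb ran from 680 in HT lithium through 739 in WT lithium, 754 in WT vehicle, 756 in WT fluoxetine and 763 in HT fluoxetine to 767 in HT vehicle. Arm means of Acta2 ran from 331 in HT lithium through 334 in HT fluoxetine, 340 in WT fluoxetine, 386 in WT lithium and 393 in WT vehicle to 403 in HT vehicle. In none of the 40 steps between neighbouring arms, over all 8 genes, did the gap exceed the larger of the 2 SDs. Those SDs give the spread between mice and not the error of a mean, so this does not test the order of neighbours. The highest arm mean was 1.41 times the lowest for Abcc9, 1.23 times for Tagln, 1.22 times for Acta2, 1.16 times for Myl9 and 1.13 times for Pdgfrb. Within a group of 4 or 5 mice the median coefficient of variation was smallest for Pdgfrb (5.58%) and largest for Acta2 (15.7%).

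Rgs5, Vtn and Cspg4 had the smallest ratios of highest to lowest arm mean, 1.12, 1.09 and 1.05. In none of the limma comparisons above did any of the 3 pass. Rgs5 ranged from 2708 to 5486 normalized reads over all libraries, Vtn from 1163 to 1917 and Cspg4 from 504 to 783. Cspg4 is also a marker of oligodendrocyte precursors, which share the NG2 proteoglycan with pericytes. Pdgfra, the precursor marker, stood at 1949 normalized reads on average, and its likeness to Cspg4 across libraries is given next.

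Between mice of the same group the 8 genes did not vary as 1 block. Pearson's r of log2 values, after subtraction of the 12 group means, was computed across the 58 libraries as a description; each pair shares the depth and dissection of a library. Among the 3 contractile genes r was 0.64 for Acta2 with Tagln, 0.58 for Acta2 with Myl9 and 0.42 for Tagln with Myl9. Among the 5 others it ran from -0.05 (Vtn with Cspg4) to 0.59 (Pdgfrb with Cspg4), with a median of 0.52. Pdgfrb had an r of 0.30 to 0.59 with each of the others, whereas Abcc9 had an r of 0.15 with Acta2 and 0.01 with Tagln, and Cspg4 one of -0.20 with Tagln. Vtn lay nearer to the contractile genes, with 0.62 to Acta2, than to Abcc9, with 0.04.

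**Figure D4:**
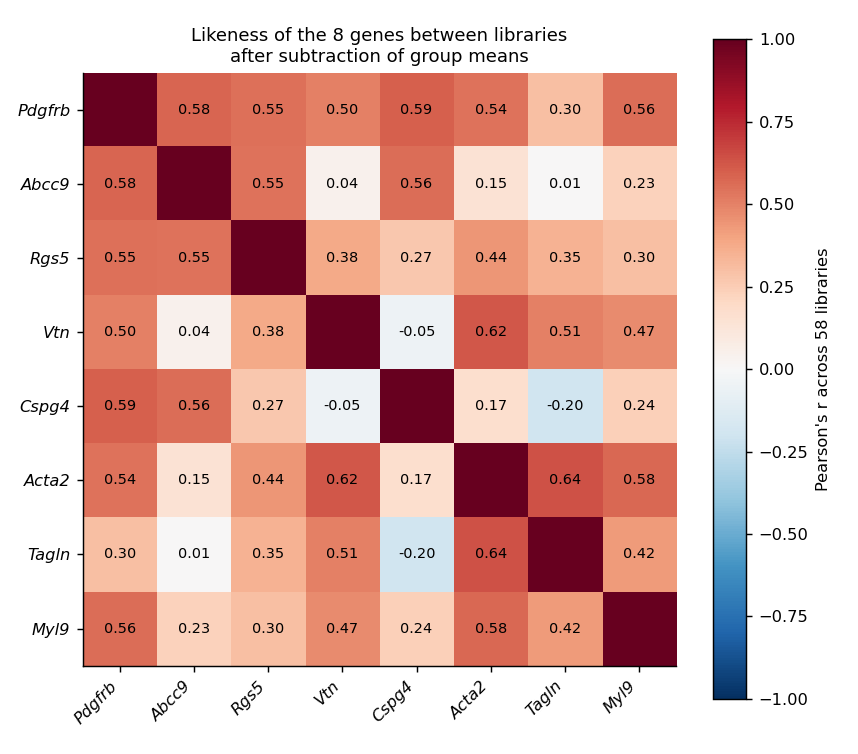
Pearson's r across 58 libraries between each pair of the 8 genes, from log2(normalized reads + 1) after subtraction of the means of the 12 groups; both axes list the genes, and colour gives r from -1 (blue) to 1 (red). Acta2 with Tagln (0.64) and Acta2 with Vtn (0.62) are the highest values, and Tagln with Cspg4 (-0.20) is the lowest.

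The genes most like each member over these libraries, among 13693 genes with a mean of at least 50, differed between members. Abcc9 was most like Flt1 (r = 0.76), an endothelial VEGF receptor, followed by Prex1 and Adgrf5 (0.66 each). Rgs5 was most like Cd93 and Slc40a1 (0.80 each) and then Ets1 (0.70). For Vtn the closest were Slc13a3 (0.85), Bmp7 and Stom (0.81 each). Acta2 was most like Eln, the elastin gene (0.81), Myh11 (0.75) and Sema3g (0.70), and Tagln most like Acta2 itself, Colec12 (0.63) and Serpind1 (0.62). Cspg4 was most like Pdgfra (0.70), Fam83h (0.63) and Prex1 (0.62). For Pdgfrb the closest were Lamb2, Itgb5 and Tln1 (0.66 each), and for Myl9 they were Col18a1 (0.59), Cldn5 (0.58) and Acta2 (0.58).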

How the data were processed

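The deposited table holds, per the submitters' processing notes, values made with Salmon 0.11.2, R 3.6.0 and DESeq2 1.19.11 on build GRCm38; options are not given in the sources used here. Its unit is a signal: the authors' normalized counts, that is reads divided by a size factor per library. In all 58 columns whole reads were recovered (100% of values whole within 0.01). In 11 of these columns the step lies within 0.01 of 1. Per the labels' protocols, libraries came from a strand-specific TruSeq mRNA kit.

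Symbols and positions came from GENCODE (18077 of 18088 identifiers found) and sequences from RefSeq. The 17925 genes that reached 10 normalized reads in 4 or more libraries were tested, and log2(value + 1) was tested with limma 3.58.1 (trend) in R 4.3.3, over 12 groups of genotype, drug and sex with the sexes weighed equally, two-sided. Figures and summaries used Python 3.11.15. Alternatives were edgeR 4.0.16 and DESeq2 1.42.0 on recovered reads, other filters, pseudocounts of 0.1 and 5, quantile and TMM scaling, only the groups compared, each sex alone, a replicate block, Gm10221 terms and leaving out each library. Both alternatives on Gm10221 reads took sex as an additive term. The main fit was tested on simulated data. Beside the 8 members, genes named were up to 4 per list that passed, by smallest p, a few defining genes, and the 3 most alike per member. Members and lists were chosen with earlier results of these data known. Contrasts within a sex and averaged over genotypes were added after seeing the data. Every pair of libraries within a group differed by more than counting noise (lowest chi-square over its degrees of freedom 3.51).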

Additional observations from a re-analysis of the deposited data

Results flagged for a closer look

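In 96 groups of 4 or 5 mice (12 groups for each of the 8 genes), the highest or lowest mouse was compared with the gap that Dixon's 95% critical value allows. Chance alone marks about 1 in 20 such groups, and 5 were marked. Abcc9 was 344.5 normalized reads in WT fluoxetine female 5, above the rest of its group. Rgs5 was 3121 normalized reads in HT fluoxetine male 3, below its group, and 5486 in WT vehicle female 1, above its group. Vtn was 1907 normalized reads in HT fluoxetine female 4, above its group. Myl9 was 204 normalized reads in HT fluoxetine female 3, below its group. The cause of these values was not tested.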

How the results depend on the processing

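Of 14 alternatives, the replicate block, TMM scaling, the absence of a filter, the stricter filter and both other pseudocounts left every member's call as it was in the comparisons rerun: the 12 of the design, the averages over genotypes or arms, and fluoxetine in HT females (run afterwards; other comparisons within a sex were not rerun). Replicate numbers did not pair mice: the median r of residuals was 0.00 both for 309 pairs of mice with the same number and for 1232 pairs with different numbers, and the replicate block gave 706 genes in place of 635 for fluoxetine in HT, 2764 in place of 2919 for lithium in HT and unchanged counts of 1 and 2 members. The count of members passing moved as follows. For fluoxetine in HT females (2) it was 1 in females alone, where Myl9 did not pass. For fluoxetine in HT (1) it was 0 in males alone, with a term for Gm10221 reads and in libraries without such reads. In females alone the count stayed the same, but the call was Acta2 (-0.64, adjusted p = 0.0126) in place of Abcc9. For lithium in HT (2) it was 0 in each sex alone and with that term. For lithium against fluoxetine in HT (1) it was 2 with DESeq2 and with quantile scaling, which added Pdgfrb, and 0 in males alone. With the Gm10221 term that comparison gave 1 in WT, Myl9 (0.39, adjusted p = 0.00972), as did sex (Myl9 0.21, adjusted p = 0.0441), and over both genotypes it called Myl9 (0.30, adjusted p = 0.00653) in place of Abcc9. Averaged over genotypes, fluoxetine (1) gave 0 with edgeR, in males alone, with the Gm10221 term and without such libraries; lithium (2) gave 0 in each sex alone and with the term; and lithium against fluoxetine (1) gave 2 with quantile scaling, again adding Pdgfrb. With 1 library left out, the count ran from 0 to 1 for fluoxetine in HT, 1 to 3 for lithium in HT, 1 to 2 for lithium against fluoxetine in HT, 0 to 2, 1 to 3 and 1 to 2 for the averages in the same order, 1 to 3 for fluoxetine in HT females, and stayed at 0 in the other comparisons rerun. Signs turned in 5 cases, none of them a call: Acta2 and Myl9 under fluoxetine in HT males alone (0.0908 and 0.0367), and, with the Gm10221 term, Acta2 under lithium in HT (0.0489) and over both genotypes (0.171) and Myl9 under fluoxetine over both genotypes (0.00505). Under lithium in HT, Acta2 passed with the groups compared alone (adjusted p = 0.0268) and without HT lithium female 3 or HT vehicle male 1 (0.0418 and 0.0382). Counts over all genes moved most with the Gm10221 term, to 0 for lithium in HT, against 2919 without it. That fit also took sex as additive, so its changes in counts, calls and signs cannot be laid to the reads alone. Under fluoxetine only females held the reads (5 of 5 in HT and 3 of 5 in WT), so there the reads and sex largely went together. For lithium against vehicle the Gm10221 term cannot be told apart from the drug, as all lithium libraries and no vehicle library held the reads. The causes were not tested. With 4 or 5 mice a group and no litter named, small differences may have been missed. The SEs and intervals given describe the uncertainty of each estimate and are not limits of detection.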
